A study of Mus musculus with 2 samples.

Results

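The interleukin-6 family was followed across the cell types of the mouse temporomandibular joint (TMJ) through 9 genes. They are the ligand genes Il6, Osm (oncostatin M), Lif (leukemia inhibitory factor) and Il11, the receptor genes Il6ra, Il6st (gp130), Osmr and Lifr, and the feedback inhibitor gene Socs3. The members were chosen by symbol, and each symbol was found once among the 32285 genes of both deposited count tables. The study injected complete Freund's adjuvant (CFA), an oil emulsion of killed mycobacteria that inflames a joint, or phosphate-buffered saline (PBS) into the TMJ of wild-type C57BL/6 mice, given as 8 to 10 weeks old in the labels. Joints were collected weeks later as condyle, disc, temporal bone, muscle and ligament in 1 sample, and the dissociated cells of several pooled female mice formed 1 droplet scRNA-Seq library per condition. Hematopoietic cells carrying CD45 were depleted before capture, so the share of immune cells is not that of the tissue. With 1 library per condition and no record of which cell came from which animal, the condition cannot be told apart from the library and no test was possible. The values below are therefore counts of unique molecular identifiers (UMIs, each standing for 1 captured transcript), or counts per 1000000 UMIs of the cell class (CPM), with exact 95% intervals that cover counting error only.

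The 4 ligands followed here signal through gp130, the shared receptor chain encoded by Il6st, which most cells carry. Interleukin-6 and interleukin-11 first bind their own receptor chain, Il6ra or Il11ra1, and then bring gp130 molecules together. Leukemia inhibitory factor uses Lifr with gp130, and mouse oncostatin M uses mainly Osmr with gp130. The assembled receptors activate JAK kinases and the transcription factor STAT3, and STAT3 induces Socs3, whose protein binds gp130 and the kinases and ends the signal. In joints the family is known for its part in synovial inflammation, the acute-phase response and bone remodelling.

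The 250 bases before the transcription start are printed for Il6, the founding ligand, and for Socs3, the feedback gene, because inflammatory signals and STAT3 are known to act on these genes. They were taken from RefSeq on GRCm38.p6, at chr5:30012864-30013113 on the plus strand for Il6 and at chr11:117969367-117969616 on the minus strand for Socs3, and capitals mark matches to 4 short motifs searched on both strands.
Il6: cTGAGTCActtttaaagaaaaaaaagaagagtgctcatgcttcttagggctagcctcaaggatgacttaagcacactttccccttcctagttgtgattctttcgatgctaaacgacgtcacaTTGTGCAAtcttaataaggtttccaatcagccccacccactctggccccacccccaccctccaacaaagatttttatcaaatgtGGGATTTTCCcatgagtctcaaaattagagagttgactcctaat
Socs3: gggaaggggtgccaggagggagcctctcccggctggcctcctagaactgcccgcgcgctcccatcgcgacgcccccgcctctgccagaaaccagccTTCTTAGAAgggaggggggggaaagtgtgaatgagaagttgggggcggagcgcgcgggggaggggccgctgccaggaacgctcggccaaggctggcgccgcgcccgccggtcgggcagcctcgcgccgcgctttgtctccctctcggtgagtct
In the Il6 window, the capitals mark TGAGTCA, a match to the AP-1 motif TGANTCA from 249 to 243 bases before the start, TTGTGCAA, a match to the reverse complement of the C/EBP motif TTGCNNAA from 128 to 121 bases before it, and GGGATTTTCC, a match to the NF-kB motif (GGGA, any base, TTTCC) from 44 to 35 bases before it. In the Socs3 window they mark TTCTTAGAA, a match to the STAT motif TTCNNNGAA, which reads the same on both strands, from 154 to 146 bases before the start. Positions are counted from the RefSeq start. The Socs3 window lies inside the GENCODE span of the gene given below, so RefSeq and GENCODE place its start differently. Whether the marked matches are bound was not tested. Among 32851 RefSeq windows of 300 bases (250 before and 50 after the start), the AP-1 motif was found in 7.81%, the NF-kB motif in 0.411%, the C/EBP motif in 10.8% and the STAT motif in 8.30%. Of the 9 members, 8 had at least 1 window. Lif and the second start of Il11 each held 1 match to the AP-1 motif before the start, Osmr held 1 just after it, and the windows of Il6st, Il6ra and Lifr held no match to the 4 motifs.

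On GRCm38, with the GENCODE annotation, Il6 lies on chromosome 5 from 30013114 to 30019981 (plus strand). Lif spans 4257557 to 4272514 and Osm 4236420 to 4241026 on chromosome 11 (plus strand), so these ligand genes are close neighbours, and Socs3 lies on the same chromosome from 117966079 to 117970047 (minus strand). Il11 lies on chromosome 7 from 4772373 to 4782859 (minus strand). Among the receptor genes, Il6st lies on chromosome 13 from 112464070 to 112510086 (plus strand) and Il6ra on chromosome 3 from 89864059 to 89913196 (minus strand), where it overlaps the antisense gene Gm42809. Osmr (6813577 to 6874969, minus strand) and Lifr (7090614 to 7197489, plus strand) are neighbours on chromosome 15. All 9 genes are protein coding.

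Barcodes with at least 500 genes, at most 10% mitochondrial UMIs and at most 1% hemoglobin UMIs were kept, which left 2667 of 7671 PBS barcodes and 4014 of 5709 CFA barcodes. The kept cells held 27201994 and 44432717 UMIs, or 7022 and 6509.5 per cell at the median, and 2 kept barcodes were shared by the libraries. Of 35 clusters, 31 were named from fixed markers and formed 17 classes, called by the marker list with "-like", and 4 stayed unnamed. Of the 17 classes, 10 had at least 50 cells in both libraries, and a CFA to PBS ratio was taken only in these, for genes with at least 20 UMIs over both libraries. The cluster that matched 6 of 8 osteoclast markers was led by Mmp12 (Ocstamp in 10 of 276 CFA cells, Ctsk in 152) and is called Mmp12-high myeloid. It held 276 CFA cells and 1 PBS cell. The 18 cells that matched the mast cell or basophil list were led by Prss34 and Mcpt8 with the mast cell genes Mcpt4, Tpsb2 and Cma1 at 0, and are called Mcpt8-high. The monocyte-like cluster also carried the progenitor genes Prtn3, Ctsg, Mpo and Elane. The erythroid-like cells differed in kind between the libraries, with medians of 22300 UMIs in PBS and 2427 in CFA, so no ratio is read from them. The myeloid classes together (neutrophil-like, immature neutrophil-like, monocyte-like, macrophage-like and Mmp12-high) made up 4.87% of PBS and 26.6% of CFA cells, and 6.51% and 42.8% of UMIs, after the CD45 depletion.

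**Figure D1:**
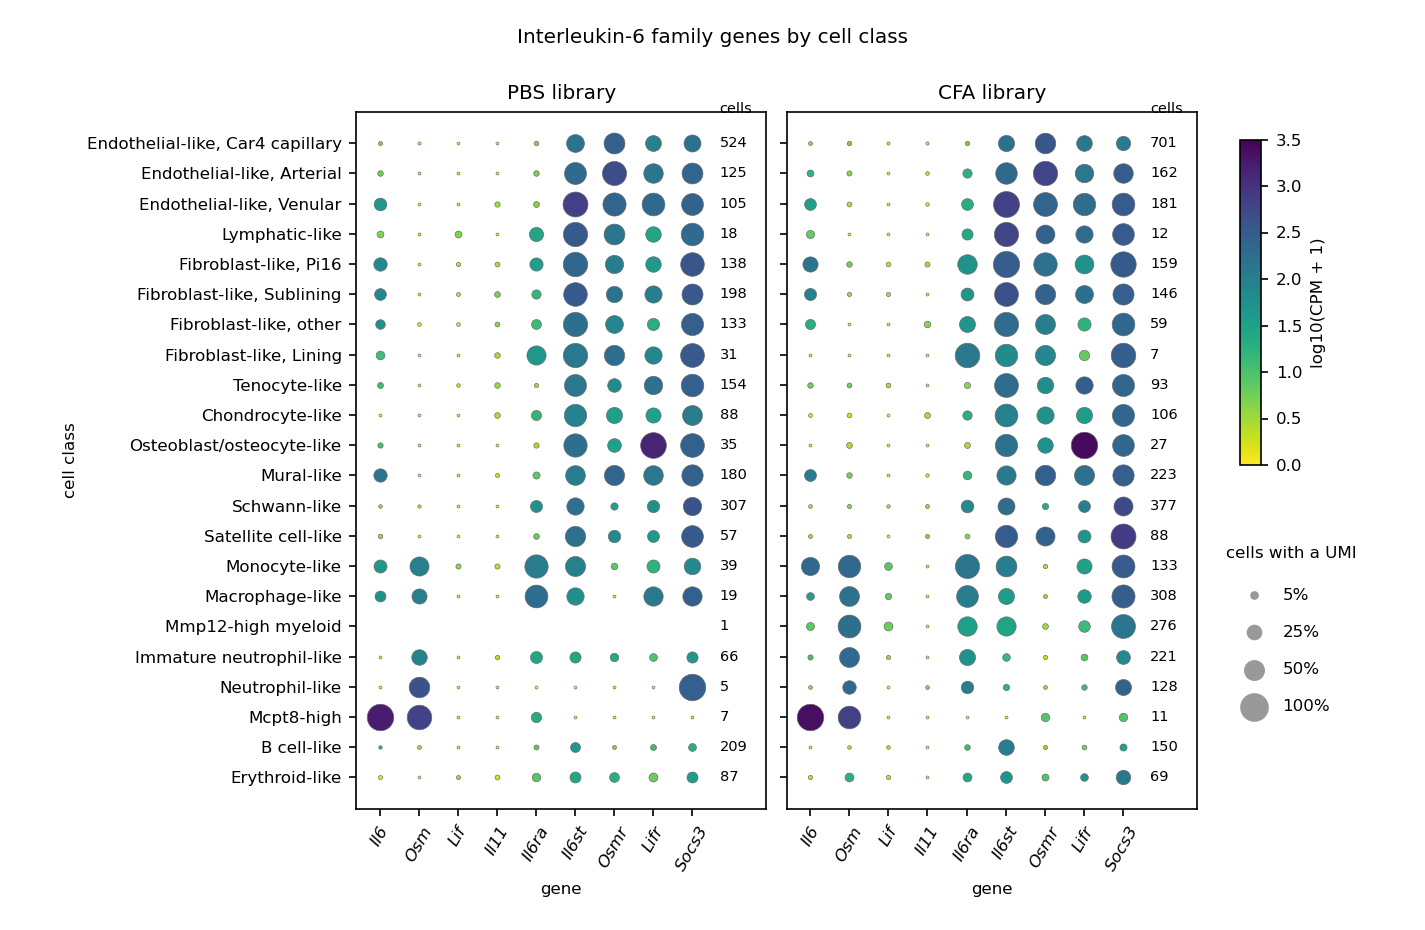
Each dot is 1 gene (x axis) in 1 cell class (y axis) of the PBS (left) or CFA (right) library. Dot area is the share of cells with a UMI, colour is log10(CPM + 1) and the numbers at the right are cells, with classes of fewer than 5 cells left blank. Osm is dark in the myeloid classes and the Mcpt8-high cells, while Il6st and Osmr are dark in the endothelial-like, fibroblast-like and mural-like classes, and Lifr is darkest in osteoblast/osteocyte-like cells.

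Over all kept cells, Osm, Lif and Il6ra were higher in the CFA library by more than 2-fold. Osm had 237 UMIs in PBS and 3625 in CFA, or 8.71 and 81.6 CPM, a ratio of 9.36 (8.21 to 10.7). Lif had 23 and 121 UMIs, a ratio of 3.22 (2.05 to 5.27), and Il6ra had 480 and 1941 UMIs, a ratio of 2.48 (2.24 to 2.74). Il6 had 891 and 2063 UMIs, or 32.8 and 46.4 CPM, a ratio of 1.42 (1.31 to 1.54). Il11 was sparse, with 33 and 28 UMIs and a ratio of 0.519 (0.302 to 0.886). The ratios of Il6st (0.914), Osmr (0.86), Lifr (1.02) and Socs3 (1.09) lay near 1. Among the 18099 genes with at least 20 UMIs, 9.56% were at least 2-fold higher and 10.4% at least 2-fold lower, and the median ratio was 0.869. Relative to that median, the ratio of Il6st passes from below to above 1, at 1.05, and that of Osmr is 0.990. These ratios mix the level within cell classes with their makeup. Without the myeloid classes, the ratio of Osm was 3.24, that of Lif 1.0, that of Il6ra 1.98 and that of Il6 1.56, while Il6st, Osmr and Lifr came to 1.37, 1.40 and 1.54.

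**Figure D2:**
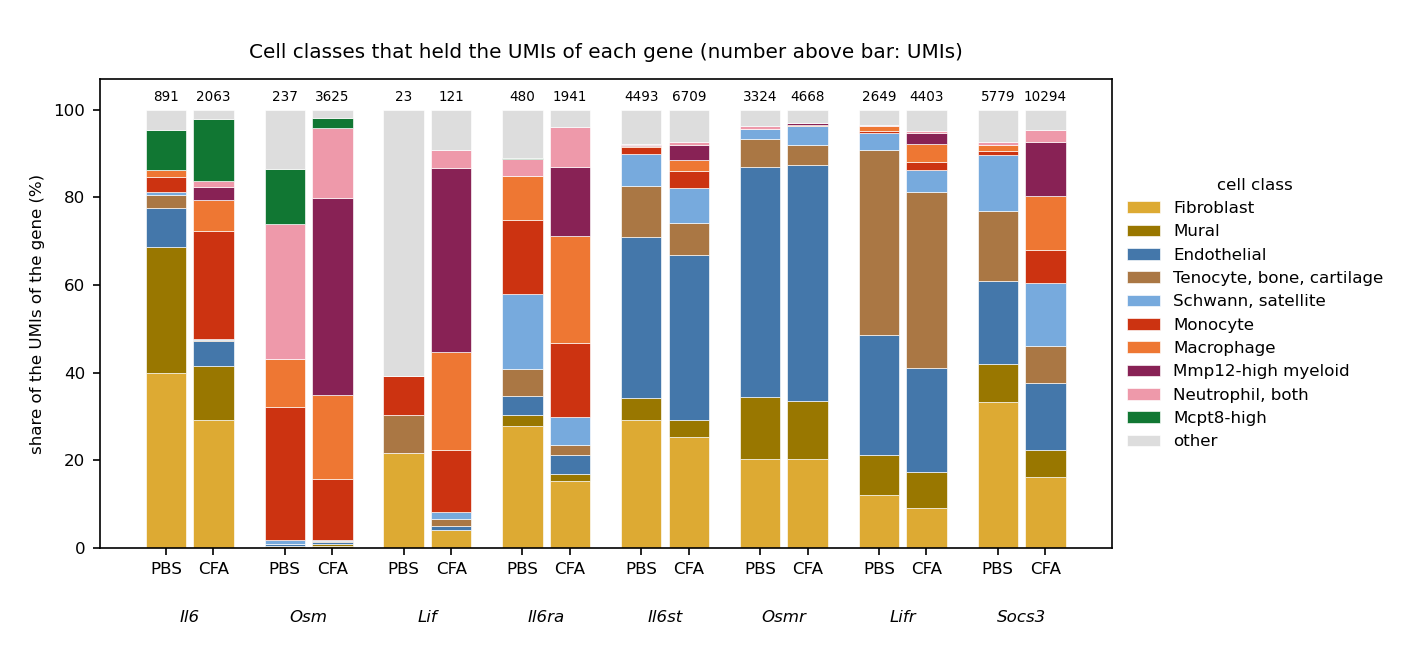
Stacked bars give the share of each gene's UMIs (y axis, percent) held by each cell class in the PBS and CFA libraries (x axis), with the number of UMIs above each bar. The myeloid classes held 72.2% of Osm UMIs in PBS and 94.1% in CFA, while endothelial-like cells held 52.4% and 53.9% of Osmr UMIs.

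Osm, the cytokine of activated myeloid cells, was found mainly in leukocytes. In the PBS library, monocyte-like cells held 72 of 237 UMIs, immature neutrophil-like cells 61, Mcpt8-high cells 30, macrophage-like cells 26 and the 5 neutrophil-like cells 12. In the CFA library, Mmp12-high myeloid cells held 1628 of 3625 UMIs (44.9%), macrophage-like cells 699, immature neutrophil-like cells 503, monocyte-like cells 502, Mcpt8-high cells 82 and neutrophil-like cells 79. The Mmp12-high cells thus held the largest share, and they were also the deepest class (median 31212 UMIs). In CPM, the CFA levels of the myeloid classes lay close together, at 208 (190 to 227) in monocyte-like, 206 (163 to 256) in neutrophil-like, 194 (177 to 211) in immature neutrophil-like, 176 (167 to 185) in Mmp12-high and 160 (148 to 172) in macrophage-like cells. Neighbours in that order overlapped in their intervals. Mcpt8-high cells stood above them, at 635 (429 to 907) CPM in 7 PBS cells and 658 (524 to 817) in 11 CFA cells. A UMI of Osm was seen in 73.9% of the Mmp12-high and 71.4% of the monocyte-like CFA cells, against 1.92% of CFA and 0.133% of PBS endothelial-like cells (medians of 4401.5 and 5405 UMIs), the class taken as the reference for free RNA. With each cell thinned to 1000 UMIs, these shares were 12.7%, 22.6%, 0.288% and 0%.

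Immature neutrophil-like cells were the myeloid class with enough cells in both libraries for a ratio of Osm. They gave 84.4 CPM in 66 PBS cells and 194 in 221 CFA cells, a ratio of 2.30 (1.76 to 3.05), and 2.73 when the 3 cells with most Osm UMIs were left out in each library. The ratio fell short of 2 without the cells of highest doublet scores (1.81), as a mean over cells (1.89) and at clustering resolution 0.8 (1.998), and was 5.50 without the hemoglobin limit. Of all genes tested in that class, 7.57% were at least 2-fold higher. Monocyte-like cells had 96.8 CPM in 39 PBS cells and 208 in 133 CFA cells, and macrophage-like cells 96.5 in 19 and 160 in 308 cells. All 3 were higher in the CFA library, whereas the 5 PBS neutrophil-like cells had 420 (217 to 733) against 206 in CFA. The monocyte-like cluster mixes kinds of cells, described below with Il6. Its cells with at least as many monocyte as progenitor marker UMIs had 152 CPM of Osm in 25 PBS and 255 in 112 CFA cells. Those richer in progenitor markers had 40.7 in 14 PBS and 73.6 in 21 CFA cells. The monocyte-like values of Osm thus mix makeup with level. Over the myeloid classes together, Osm was 96.5 CPM in PBS and 179 in CFA, a ratio of 1.86 (1.59 to 2.18). These pooled classes differ in makeup, with 19 macrophage-like and 1 Mmp12-high cell in PBS and 308 and 276 in CFA, so a pooled ratio mixes makeup with level. In endothelial-like cells the ratio of 17 (2.73 to 706) rests on 1 PBS and 20 CFA UMIs, each in a different cell (2.90 as a mean over cells), and Lyz2, the lysozyme gene of myeloid cells, was at 4.77 and 235 CPM there. The part of free myeloid RNA in that ratio was not tested.

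Il6, the founding cytokine of the family, had a wider set of sources, and few cells held most of its UMIs. In the PBS library, fibroblast-like cells held 39.96% of the 891 UMIs, mural-like cells 28.7%, Mcpt8-high cells 9.20% and endothelial-like cells 8.87%. In the CFA library, fibroblast-like cells held 29.3% of the 2063 UMIs, monocyte-like cells 24.6%, Mcpt8-high cells 14.2% and mural-like cells 12.2%. Of the cells with a UMI, 29 of 206 in PBS and 40 of 328 in CFA were enough to hold 50% of all Il6 UMIs, so the levels of a class rest on few cells.

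The highest level was that of the Mcpt8-high cells, a group of only 7 PBS and 11 CFA cells. All 18 carried Il6, from 1 to 25 UMIs (median 11) in PBS and from 2 to 120 (median 16) in CFA. Their level was 1737 CPM (1381 to 2156) in PBS and 2352 (2091 to 2638) in CFA. The same cells all carried Il4, the type 2 cytokine of basophils, with medians of 2 and 8 UMIs, and Il6st had no UMI in them (0 of 7 and 0 of 11 cells, with exact upper limits of 41.0% and 28.5% for the share of cells with a UMI). Without them, the ratio of Il6 over all cells was 1.34.

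**Figure D3:**
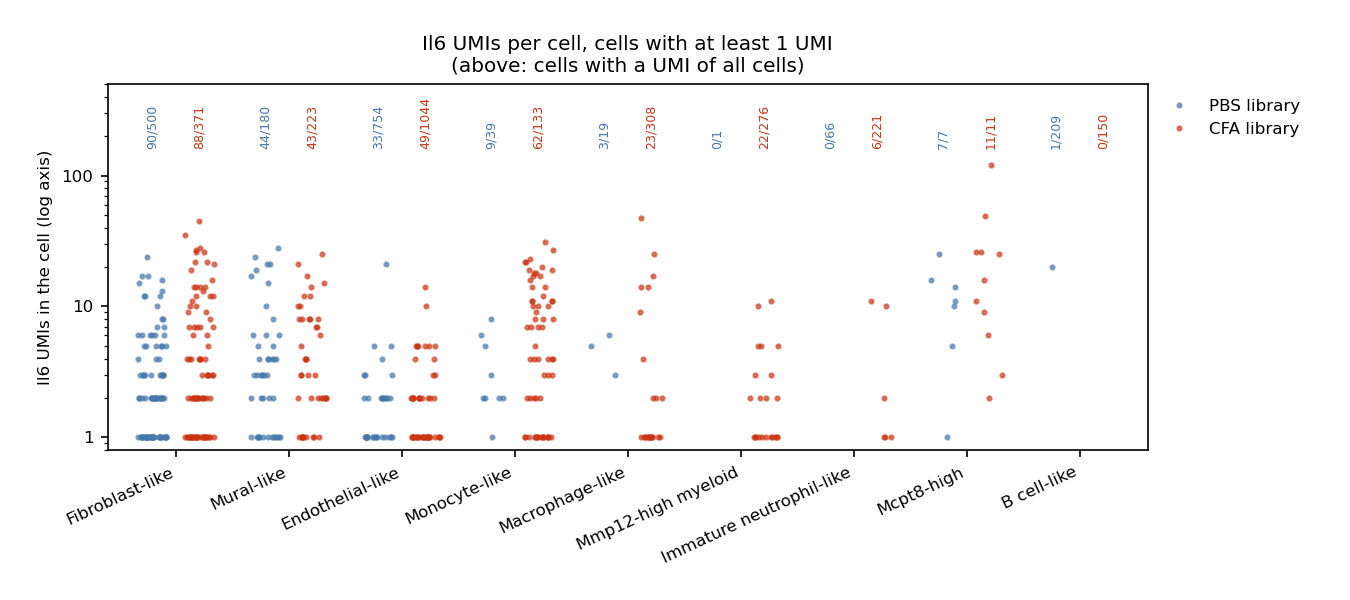
Each point is 1 cell with at least 1 Il6 UMI, its Il6 UMIs on a log y axis, by class (x axis) and library (blue PBS, red CFA), with the number of such cells of all cells above. All 18 Mcpt8-high cells carried Il6, up to 120 UMIs, and 62 of 133 monocyte-like CFA cells did, against 9 of 39 in PBS.

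In the monocyte-like cluster, Il6 was 41.7 CPM (28.3 to 59.2) in PBS and 211 (193 to 230) in CFA, with a UMI in 9 of 39 and 62 of 133 cells. No ratio was taken with 39 PBS cells, but the intervals do not overlap. The cluster mixes 2 kinds of cells. Cells with at least as many monocyte as progenitor marker UMIs had 77.3 CPM in 25 PBS cells and 253 in 112 CFA cells, and cells richer in progenitor markers had 5.43 in 14 and 87.98 in 21 cells, so Il6 was higher in the CFA library in both. Macrophage-like cells had 52.0 (28.4 to 87.2) in PBS and 34.1 (28.8 to 40.03) in CFA, and Mmp12-high cells 6.59 in CFA. Immature neutrophil-like cells had 0 UMIs in PBS (upper limit 5.10 CPM) and 26 in CFA (10.0 CPM, 6.54 to 14.7). The CFA level was 2.41-fold that of a floor of 3 UMIs in the PBS cells, but the 26 UMIs came from only 6 cells. The myeloid classes together held 5.05% of Il6 UMIs in PBS and 36.1% in CFA.

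Among stromal cells, mural-like cells, the smooth muscle and pericyte class, carried Il6 at 131 CPM (116 to 148) in PBS and 111 (97.4 to 125) in CFA, a ratio of 0.844 (0.707 to 1.01), which ran from 0.541 as a mean over cells to 1.10 with at most 5% mitochondrial UMIs. A UMI was seen in 24.4% and 19.3% of them. The mural-like cluster of 81 PBS and 67 CFA cells had 234 and 221 CPM, and that of 99 and 156 cells had 61.8 and 67.9. The ratio of the class thus mixes the makeup of these clusters with level. Fibroblast-like cells had 61.1 and 108 CPM, a ratio of 1.77 (1.55 to 2.03) and 1.75 without the 3 cells of most Il6 UMIs in each library, with a UMI in 18.0% and 23.7% of cells. Thinned to 1000 UMIs these shares were 3.64% (2.17 to 5.69) and 7.44% (4.96 to 10.6). The direction was thus the same at equal depth, though the intervals overlap. Within the fibroblast-like class, the Pi16 subtype, which lies around vessels in many tissues, had 69.7 and 147 CPM, a ratio of 2.11 (1.73 to 2.58) where 8.02% of genes tested were at least 2-fold higher. Sublining cells had 75.4 and 95.7 CPM (1.27, 0.984 to 1.64), the remaining fibroblast-like cells 54.3 and 18.8 (0.346, 0.197 to 0.576, where 6.45% of genes were at least 2-fold lower), and the Prg4 lining cells 6 UMIs in 31 PBS cells and 0 in 7 CFA cells. The Pi16 subtype held 128 of the 356 fibroblast-like Il6 UMIs in PBS and 460 of 604 in CFA. Its share of all fibroblast-like UMIs was also larger in CFA, with 1835612 of 5823413 in PBS and 3131216 of 5574855 in CFA. The ratio of the whole class thus mixes makeup with level.

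Endothelial-like cells had 13.5 and 16.998 CPM of Il6, a ratio of 1.26 (0.94 to 1.7), and most of it lay in venular cells, with 62 of 79 UMIs in PBS and 91 of 117 in CFA. The venular level was 42.8 and 33.4 CPM, and the arterial level 5.0 and 15.7, from 5 and 18 UMIs. Tenocyte-like cells had 22 and 6 UMIs (ratio 0.479, 0.159 to 1.22, but 1.56 when clustered without the hemoglobin limit) and B cell-like cells had 20 UMIs in PBS, all in 1 cell, and 0 in CFA. Chondrocyte-like cells had 0 and 1 UMI and Schwann-like cells 4 and 3. Neutrophil-like cells, the reference for free RNA, had Il6 in 1 of 128 CFA cells.

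Lif and Il11 were near the limit of detection. Lif, a cytokine known for the upkeep of stem cells and for bone turnover, had 23 UMIs in PBS, of which 7 lay in 1 erythroid-like cell. Of the 121 UMIs in CFA, 51 lay in Mmp12-high, 27 in macrophage-like and 17 in monocyte-like cells, and the myeloid classes held 82.6%. In CPM, the myeloid classes together had 1.13 in PBS (2 UMIs) and 5.26 in CFA, a ratio of 4.66 (1.26 to 39) where 11.5% of genes were at least 2-fold higher, and the Mmp12-high cells behind 51 of the CFA UMIs had 1 cell in PBS. Il11, a cytokine of fibroblasts and bone cells, had 16 and 9 UMIs in fibroblast-like cells, 5 and 0 in tenocyte-like and 3 and 4 in chondrocyte-like cells. Its fibroblast-like ratio of 0.588 had an interval from 0.229 to 1.41, so no difference was detectable at this depth.

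Among the receptors, Il6ra, the chain that limits which cells answer interleukin-6 directly, was the member with the most classes past 2-fold. Its ratio was above 1 in all 6 classes tested and at least 2-fold higher in 4 of them, though in chondrocyte-like cells it was 0.673 as a mean over cells. Over the 9 members and the 9 compared classes other than the erythroid-like one, 49 pairs of gene and class were tested, of which 11 (22.4%) were at least 2-fold higher and 3 (6.12%) at least 2-fold lower in CFA. Among all genes tested, the share at least 2-fold higher was 5.10% in endothelial-like, 7.15% in fibroblast-like, 3.86% in tenocyte-like, 5.02% in chondrocyte-like, 3.80% in mural-like, 8.33% in Schwann-like, 8.80% in satellite cell-like, 7.57% in immature neutrophil-like and 3.51% in B cell-like cells. The share at least 2-fold lower was 5.95%, 5.65%, 5.57%, 7.26%, 4.81%, 2.97%, 7.16%, 12.6% and 5.24% in the same order.

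**Figure D4:**
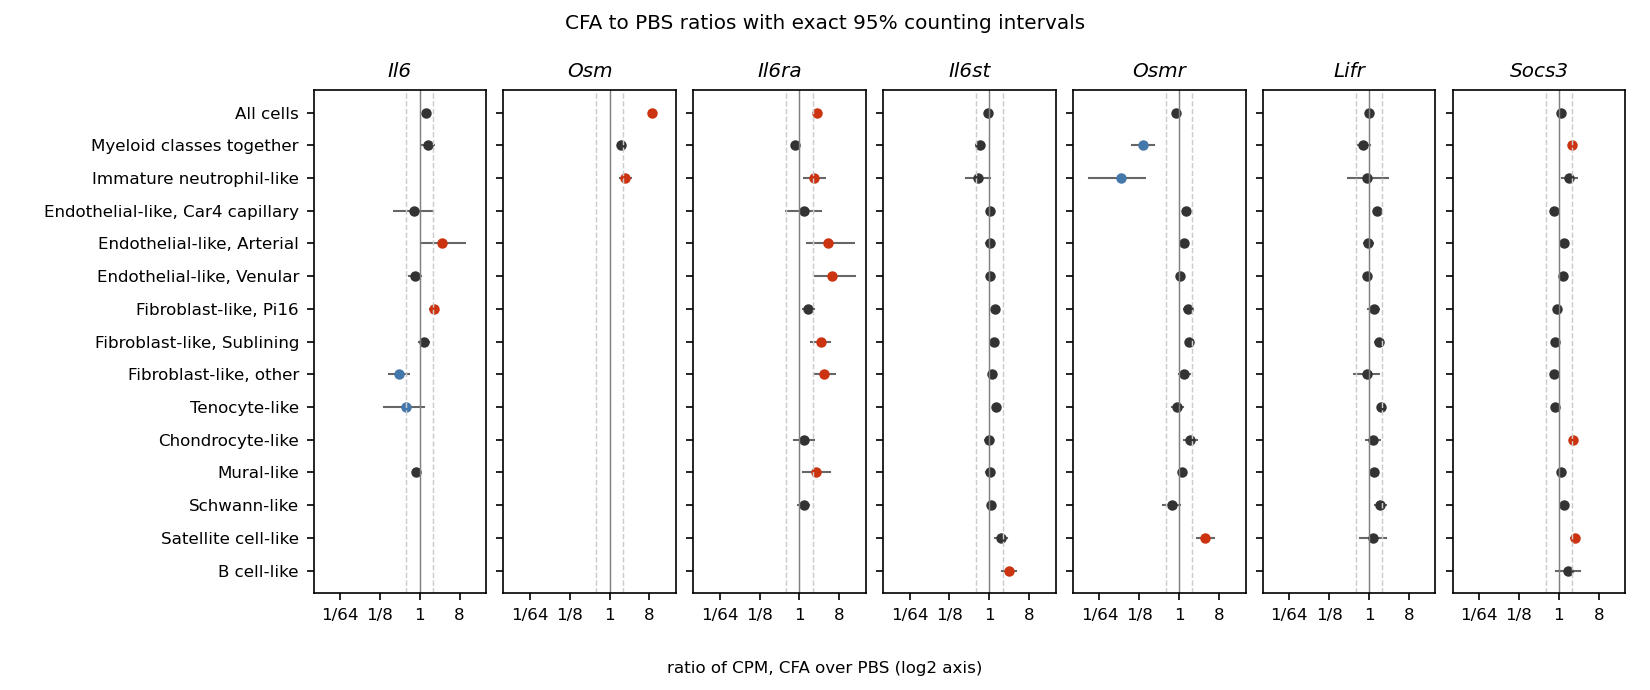
Points are CFA to PBS ratios of CPM (log2 x axis) with exact 95% counting intervals, by cell class (y axis) and gene (panels), where the gene had at least 20 UMIs in the class and at least 1 in each library. Red points are at least 2-fold higher and blue points at least 2-fold lower in CFA. Il6ra lies right of 1 in every class shown but the pooled myeloid one, where the ratio is 0.808, and Osmr of immature neutrophil-like cells lies far to the left at 0.0491.

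Among the classes, Il6ra was highest in macrophage-like and monocyte-like cells. Macrophage-like cells had 182 CPM (135 to 241) in PBS and 109 (99.6 to 119) in CFA, monocyte-like cells 109 and 136, neutrophil-like CFA cells 101 and Mmp12-high CFA cells 32.6. Immature neutrophil-like cells had 24.9 and 53.2 CPM, a ratio of 2.13 (1.30 to 3.71), which was 2.98 without the 3 cells of most Il6ra UMIs and 3.21 without the hemoglobin limit. The myeloid classes held 30.8% of all Il6ra UMIs in PBS and 66.2% in CFA, while their pooled level was 83.5 and 67.5 CPM.

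Outside the myeloid classes, Il6ra was higher in fibroblast-like, endothelial-like and mural-like cells of the CFA library. Fibroblast-like cells had 23.0 (19.3 to 27.3) and 52.9 (47.0 to 59.3) CPM, a ratio of 2.30 (1.87 to 2.84) against 7.15% of genes at least 2-fold higher there. A UMI was seen in 17.6% and 39.1% of cells, and in 2.63% and 5.23% at 1000 UMIs per cell. The Pi16 subtype had 34.3 and 54.9 CPM (1.6, 1.19 to 2.17) and sublining cells 14.8 and 44.8 (3.02, 1.86 to 5.03, against 9.10% of genes). The few Prg4 lining cells had 43.2 CPM (27.7 to 64.3) in 31 PBS cells and 124 (76.6 to 189) in 7 CFA cells. Endothelial-like cells had 3.41 and 12.2 CPM, a ratio of 3.58 (2.18 to 6.15, and 2.37 as a mean over cells) against 5.10% of genes, with 3.45 and 19.1 in venular cells (5.53, 2.22 to 17.7, 5.60% of genes), 4.0 and 17.5 in arterial cells (4.37, 1.46 to 17.6, 6.18% of genes), and 3.22 and 3.99 in Car4 capillary cells (1.24, 0.50 to 3.09). The higher level thus lay in venular cells, from 5 and 52 UMIs, and in arterial cells, from 4 and 20. At 1000 UMIs per cell a UMI was seen in 0.952% and 1.10% of venular cells and in 0 of 124 and 0 of 162 arterial cells. No difference in these shares was thus detectable at equal depth. Mural-like cells had 6.14 and 14.6 CPM (2.37, 1.19 to 5.04, 3.80% of genes), from 12 and 33 UMIs, and the ratio was 1.53 as a mean over cells and 4.19 with at most 5% mitochondrial UMIs. Of the 2 mural-like clusters, 1 had 6.86 CPM in 99 PBS cells and 18.3 in 156 CFA cells, and the other 5.08 in 81 and 4.75 in 67 cells. Lyz2 was at 8.59, 4.77 and 5.12 CPM in these PBS classes and at 194, 235 and 267 in the CFA ones, against 16415 in CFA macrophage-like cells, and the part of free myeloid RNA was not tested. B cell-like cells had 6.70 and 11.2 CPM of Il6ra, and Schwann-like cells, the glia of peripheral nerves, 52.4 and 65.7 (1.26, 0.939 to 1.69). The largest Schwann-like cluster had 63.4 (50.2 to 79.0) in 261 PBS and 97.1 (80.4 to 116) in 323 CFA cells. A Schwann-like cluster of 3 PBS and 16 CFA cells had 0 Il6ra UMIs, so the ratio of the class mixes makeup with level.

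Il6st, the shared gp130 chain, was found in most stromal and vascular cells and was lowest in granulocytes. Venular endothelial-like cells carried it at 655 CPM (614 to 698) in PBS and 668 (637 to 699) in CFA, with a UMI in 88.6% and 96.1% of cells. Fibroblast-like cells had 226 and 304 CPM (1.35, 1.25 to 1.45) and sublining cells 333 and 421. Endothelial-like cells had 282 and 367 (1.30, 1.22 to 1.39), but within capillary, arterial and venular cells the ratios were 1.06, 1.04 and 1.02. The Il6st-rich venular cells gave 1450005 of the 5864482 endothelial-like UMIs in PBS and 2727550 of 6883247 in CFA. Satellite cell-like cells, the muscle stem cell class, had 168 and 309 CPM (1.84, 1.38 to 2.48). B cell-like cells had 40.2 (29.0 to 54.3) and 112 (90.1 to 138), a ratio of 2.79 (1.91 to 4.13) against 3.51% of genes, with a UMI in 12.9% and 34.0% of cells and in 5.0% and 13.8% at 1000 UMIs. Leaving out the 3 B cell-like cells with most Il6st UMIs in each library gave 3.06, and clustering without the hemoglobin limit gave 1.65. Immature neutrophil-like cells had 24.9 and 13.5 CPM, and 4.69% of neutrophil-like CFA cells (median 2656 UMIs) had a UMI.

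Osmr, a receptor chain for oncostatin M and, with Il31ra, for interleukin-31, was a gene of vessel walls and fibroblasts. Endothelial-like cells held 52.4% of its UMIs in PBS and 53.9% in CFA, fibroblast-like cells 20.3% and 20.2% and mural-like cells 14.2% and 13.3%. Arterial cells had the highest level, 482 CPM (440 to 527) in PBS and 608 (563 to 654) in CFA. Capillary cells had 271 and 386 (1.42, 1.30 to 1.55), mural-like cells 242 and 273 (1.13, 1.0 to 1.28), venular cells 231 and 241 (1.04, 0.914 to 1.19) and fibroblast-like cells 116 and 170 (1.46, 1.32 to 1.62). The myeloid classes that carried Osm were almost without Osmr, with 10 UMIs in 308 macrophage-like, 19 in 276 Mmp12-high and 1 in 128 neutrophil-like CFA cells.

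Osmr differed most between the libraries in satellite cell-like and immature neutrophil-like cells. Satellite cell-like cells had 67.3 CPM (43.9 to 98.6) in 57 PBS cells and 262 (223 to 305) in 88 CFA cells, a ratio of 3.89 (2.56 to 6.14) against 8.80% of genes at least 2-fold higher in that class, and 5.93 without the 3 cells of most Osmr UMIs in each library. A UMI was seen in 21.1% and 51.1% of cells, and in 5.26% and 19.5% at 1000 UMIs. The summed level of early response and heat shock genes described with Socs3 was also higher in these CFA cells (15651 and 27241 CPM), and its part in the satellite cell-like ratios of Osmr, Il6st, Socs3 and Stat3 was not tested. Chondrocyte-like cells had 30.1 and 53.7 CPM (1.79, 1.28 to 2.53), and 2.41 without a cluster that held PBS cells only. In immature neutrophil-like cells Osmr had 17 UMIs in PBS and 3 in CFA, a ratio of 0.0491 (0.00923 to 0.17) and 0.153 as a mean over cells, but 3 PBS cells held 14 of the 17 UMIs.

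Lifr, the chain for leukemia inhibitory factor, stood out in the osteoblast/osteocyte-like class. Osteoblast/osteocyte-like cells, only 35 in PBS and 27 in CFA, held 27.6% and 30.5% of its UMIs, at 1399 CPM and 2513 CPM. Few cells decided this level, since 5 PBS and 3 CFA cells held at least 50% of the UMIs of the class, with up to 127 and 338 in 1 cell. A UMI was nonetheless seen in 33 of 35 and 27 of 27 cells. The class may mix kinds of cells. When clustered without the hemoglobin limit, Lifr was a leading gene of an unnamed cluster led by Adipoq (32 PBS and 13 CFA cells). That cluster also carried the osteoblast markers Ibsp, Runx2 and Sp7. Lifr was not a leading gene of the Bglap-led cluster (112 and 16 cells). How far these cells overlap with the class was not tested. Tenocyte-like cells had 161 and 296 CPM (1.83, 1.58 to 2.14), where 3 and 4 cells held at least 50% of the UMIs, and 1.93 without the top 3 cells. Venular cells had 205 and 187 CPM, mural-like cells 123 and 163 (1.32, 1.12 to 1.56), capillary cells 87.0 and 129 (1.48, 1.27 to 1.73) and fibroblast-like cells 54.8 and 71.2 (1.30, 1.12 to 1.51). The Schwann-like ratio of 1.82 (1.40 to 2.37) came to 1.09 (0.793 to 1.51) without 1 cluster of 3 PBS and 16 CFA cells. Of the classes with at least 50 cells in both libraries, only the erythroid-like one passed 2-fold for Lifr. Among the classes of fewer cells, macrophage-like cells had 115 (78.2 to 163) in 19 PBS cells and 41.2 (35.4 to 47.7) in 308 CFA cells, monocyte-like cells 16.1 and 32.7, and lymphatic-like cells 26.5 in 18 and 181 in 12 cells.

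A cell answers a ligand directly only where it carries both receptor chains, so cells with a UMI of each chain were counted. A response to shed interleukin-6 receptor is not covered by these counts. Osmr together with Il6st was seen in 70.5% of PBS and 78.5% of CFA venular cells, in 57.6% and 56.2% of arterial cells, in 39.2% and 62.8% of fibroblast-like cells and in 15.8% and 37.5% of satellite cell-like cells. Lifr with Il6st was seen in 69.5% and 67.4% of venular and 31.4% and 41.2% of fibroblast-like cells. Il6ra with Il6st was seen in 15.6% and 37.5% of fibroblast-like cells, in 3.81% and 18.8% of venular cells and, in CFA, in 71 of 133 monocyte-like and 77 of 308 macrophage-like cells. In neutrophil-like CFA cells the 3 pairs were seen in 0, 0 and 1 of 128 cells. These shares move with depth. In Pi16 fibroblast-like cells, whose medians were 13353 and 18121 UMIs, Osmr with Il6st was seen in 42.8% and 77.99%, but in 0.725% and 0.629% at 1000 UMIs per cell. For satellite cell-like cells the thinned shares were 0% and 5.75%, and for fibroblast-like cells 1.41% and 2.48%. Il6ra with Il6st was then seen in 0.404% and 0.551% of fibroblast-like cells and in 0 of 105 and 0 of 181 venular cells, so no difference in this pair was detectable at equal depth.

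Socs3, the feedback inhibitor, was expressed in nearly every class. Schwann-like cells had 402 CPM (371 to 435) in PBS and 536 (503 to 570) in CFA (1.33, 1.20 to 1.48), fibroblast-like cells 331 and 298 (0.899, 0.842 to 0.961) and mural-like cells 253 and 286. Satellite cell-like cells had 334 (279 to 397) and 773 (705 to 846), a ratio of 2.32 (1.90 to 2.84), with a UMI in 66.7% and 88.6% of cells and in 21.1% and 46.0% at 1000 UMIs. Chondrocyte-like cells had 110 and 229 (2.08, 1.76 to 2.47, against 5.02% of genes), and 3.64 without the cluster that held PBS cells only, but 1.62 as a mean over cells and 1.83 without the cells of highest doublet scores. Monocyte-like cells had 68.6 (51.1 to 90.2) in PBS and 325 (302 to 348) in CFA, while macrophage-like cells had 275 and 290 and immature neutrophil-like cells 41.5 and 71.3 (1.72, 1.16 to 2.62). Monocyte-like cells with at least as many monocyte as progenitor marker UMIs had 117 and 406. Those richer in progenitor markers had 19.0 and 91.2, so the values of the whole cluster mix makeup with level. The myeloid classes together, with their different makeup, had 93.7 and 189 (2.02, 1.73 to 2.37), or 1.89 as a mean over cells. In endothelial-like cells the subtypes went in opposite directions, with 149 and 115 in capillary cells (0.770, 0.670 to 0.885), 234 and 307 in arterial cells (1.31, 1.11 to 1.56) and 250 and 318 in venular cells (1.27, 1.12 to 1.44). B cell-like cells were low, at 19.1 and 31.1.

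Socs3 is also an early response gene, so the summed level of 12 early response and heat shock genes, which can be induced while tissue is dissociated, was set beside it. That sum was 15651 CPM in PBS and 27241 in CFA satellite cell-like cells, 5507 and 7764 in chondrocyte-like cells, 9842 and 7189 in endothelial-like cells, 9780 and 9272 in fibroblast-like cells and 10648 and 10533 in Schwann-like cells. In monocyte-like cells the sum was 3556 and 5396, and in the myeloid classes together 3691 and 5179. It was thus higher in CFA in the satellite cell-like, chondrocyte-like and pooled myeloid classes, where Socs3 passed 2-fold, and in monocyte-like cells. In Schwann-like cells Socs3 was higher in CFA while the sum was not. Arterial and venular cells also had more Socs3 in CFA, while their sums were lower, at 11397 and 9937 CPM and at 9061 and 6690. For capillary cells both were lower in CFA, with sums of 9718 and 6595. The part of dissociation in the Socs3 values was not tested in any class.

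**Figure D5:**
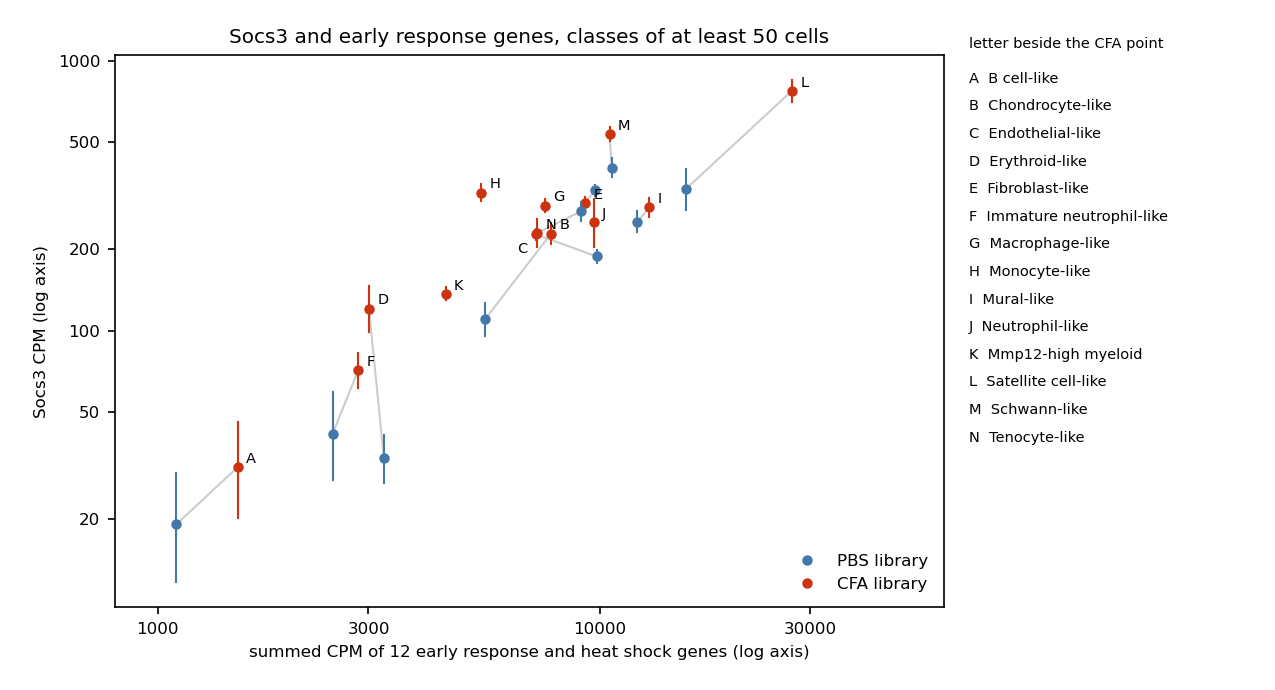
Each point is a cell class of at least 50 cells in the PBS (blue) or CFA (red) library, with the summed CPM of the 12 early response and heat shock genes on the log x axis and Socs3 CPM on the log y axis. Bars are exact 95% counting intervals and grey lines join the libraries of a class. Satellite cell-like cells in CFA lie highest on both axes, at 27241 and 773.

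Over 14 classes and 24 class levels, the genes whose log2 level was most like that of Socs3 were Fos (Pearson r = 0.913), Stat3 (0.88) and Junb (0.844). For Osm they were Pirb (0.986), Igsf6 (0.984) and Alox5ap (0.979), all known from myeloid cells, for Osmr Adamts1 (0.936), Phldb2 (0.935) and Tead2 (0.934), for Il6st Zscan26 (0.923), Wwc2 (0.899) and Zfp945 (0.896), for Lifr Laptm4a (0.864), Pbx3 (0.863) and Trim3 (0.861), and for Il6ra Rab32 (0.825), Sirpa (0.817) and Nceh1 (0.796). For Il6 they were Hotairm1 (0.814), Adora2b (0.793) and 1500035N22Rik (0.789), and sparse Lif was nearest to Itgb7 (0.915), Gm48065 (0.913) and Tifab (0.908). Among the members, Il6st went with Osmr (0.761) and Lifr (0.714), and Osm with Il6ra (0.720) and against Il6st (-0.666). The points come from the same 2 libraries, and PBS and CFA levels of a class are not independent.

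Of 15 known STAT3 targets in fibroblast-like cells, 8 were at least 2-fold higher in CFA and 0 lower, with a median ratio of 2.41 against 0.988 over all genes tested there, of which 7.15% were higher and 5.65% lower by that fold. The 8 were the acute-phase genes Saa3, Hp, Lrg1, Lcn2 and Serpina3n, the kinase gene Pim1, the protease inhibitor gene Timp1 and the chemokine gene Ccl2. Saa3 had 3 UMIs in PBS and 5536 in CFA, Hp 23 and 6795, Lrg1 1 and 149, Lcn2 19.9 and 132 CPM, Timp1 120 and 470 CPM and Pim1 36.9 and 89.0 CPM. The list was chosen with earlier results of these data known, and most of these genes also answer other inflammatory signals. The counts here and below therefore describe the list and do not test STAT3 activity. In the other compared classes, 5 of 14 were higher and 1 lower in endothelial-like cells (median 1.6, with 5.10% of all genes higher), 6 and 2 of 14 in mural-like cells (1.33, 3.80%), 6 and 0 of 13 in tenocyte-like cells (1.65, 3.86%), 4 and 0 of 12 in Schwann-like cells (1.28, 8.33%), 4 and 0 of 8 in B cell-like cells (1.6, 3.51%), 4 and 1 of 13 in immature neutrophil-like cells (1.41, 7.57%), 2 and 1 of 11 in chondrocyte-like cells (1.43, 5.02%) and 2 and 1 of 9 in satellite cell-like cells (1.66, 8.80%). Saa3 was low outside fibroblast-like and myeloid cells, since it lay between 11 and 34.9 CPM in B cell-like, chondrocyte-like, endothelial-like, mural-like, satellite cell-like, Schwann-like and tenocyte-like CFA cells, against 993 in fibroblast-like, 759 in Mmp12-high and 1121 in macrophage-like cells, and the part of free RNA in these low levels was not tested. In fibroblast-like cells the myeloid gene Lyz2 was 8.59 CPM in PBS and 194 in CFA, while the neutrophil gene S100a8 was 195 and 50.2, and the part of free myeloid RNA in the values above was not tested.

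Stat3, the transcription factor downstream of gp130, had CFA to PBS ratios of 0.97 in fibroblast-like and 0.982 in endothelial-like cells, and 1.97 (1.73 to 2.26) in satellite cell-like cells. Adam17, which sheds the interleukin-6 receptor, had 98.7 and 108 CPM in fibroblast-like cells and 31.8 and 101 in immature neutrophil-like cells (3.16, 2.06 to 5.07).

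The other ligands and receptors of the family had their own sources. Cntf, the neurotrophic member, lay in Schwann-like cells, which held 94.2% of its UMIs in PBS and 95.8% in CFA, at 761 and 472 CPM (0.620, 0.567 to 0.677). Clcf1, the gene of a further ligand, had 110 and 248 UMIs, of which 123 in CFA lay in Mmp12-high cells. Il11ra1, the chain for interleukin-11, was led by fibroblast-like cells, which held 62.5% of its UMIs in PBS and 39.8% in CFA. Their level was 513 and 318 CPM (0.620, 0.585 to 0.658), so the receptor was present where the ligand Il11 had few UMIs. Cntfr was highest in tenocyte-like cells (63.8 and 83.7 CPM) and had 7.85 and 42.6 in Schwann-like cells (5.42, 2.93 to 10.9, where 8.33% of genes were at least 2-fold higher). The part of the Schwann-like cluster of 3 PBS and 16 CFA cells in that ratio was not tested. Ebi3 was led by immature neutrophil-like cells at 74.7 and 81.3 CPM, and Il27 in CFA by macrophage-like cells, with 92 of 210 UMIs. Il31 had 1 and 0 UMIs and Il11ra2 had 0 in both libraries.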

How the data were processed

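Droplet scRNA-Seq (3' end, 10x) of dissociated mouse TMJ gave 1 PBS and 1 CFA library. The deposited values are UMI counts per gene and barcode, which the authors made with Cell Ranger 7.0.1 on mm10, its barcode filter included, and deposited as whole numbers. The labels and the study's methods differ in the enzyme concentrations of the dissociation. Barcodes with fewer than 500 genes, over 10% mitochondrial or over 1% hemoglobin UMIs were left out here, the last of which removed 3178 PBS and 339 CFA barcodes.

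Kept cells were normalised with SCTransform 0.4.2, integrated over both libraries on 3000 genes and clustered on 200 principal components at resolution 1.5 in Seurat 5.3.0 (R 4.3.3), with the members and pathway lists left out of the genes used. A cluster was named after the marker list with the largest share of its genes detected (in at least 25% of the cluster's cells and 2-fold above the other cells, with at least 3 such genes), unless its leading genes belonged to another list, and 4 clusters (141 PBS and 377 CFA cells) stayed unnamed. Doublets were kept. Scrublet called 21 PBS cells and 2 CFA cells, and an alternative left out the 5% of cells with the highest scores in each library. UMIs of a gene were summed over the cells of a class and divided by all UMIs of these cells (CPM). Levels carry exact Poisson, shares of cells Clopper-Pearson and ratios exact conditional binomial 95% intervals (scipy 1.17.1), all for counting error only. A fold against 0 UMIs was taken against a floor of 3 UMIs. Shares of cells were also counted after thinning each cell to 1000 UMIs, leaving out shallower cells. With 1 library per condition no test was run, and a ratio of at least 2 or at most 0.5 was counted against the share of all genes beyond the same fold. The genes named are the members, the pathway lists and, for each member with at least 100 UMIs, the 3 genes with the most similar level, log2(CPM + 10), over classes of at least 50 cells. Lyz2, S100a8 and the genes that describe a class were chosen after their values were seen. The members and lists were chosen with earlier results of these data known. Some genes of the pathway lists are not reported here. The scripts were tested on simulated counts.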

Additional observations from a re-analysis of the deposited data

How the results depend on the processing

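No paired analysis was possible because each condition has 1 library, and no library could be left out for the same reason. The 17 main ratios (each member over all cells, and in the compared class with most of its UMIs) were recomputed under other settings, which gave 149 values. Of these, 143 kept their side of 1, and the others were 1 value of Lifr over all cells (0.976 with at most 5% mitochondrial UMIs) and 5 of those given next for Il6st, Osmr and Socs3. All but 3 lay within 1.5-fold of the reported ratio, and the 3 were those of Osm below at 5.63 and 5.50 and of Il11 in fibroblast-like cells (0.289 as a mean over cells). Over all cells, the mean over cells of each cell's CPM gave 1.02 for Il6, 5.63 for Osm, 2.21 for Il6ra, 1.10 for Osmr and 1.13 for Lifr. Scaling by the median ratio of all genes gave 1.63 for Il6, 10.8 for Osm, 1.05 for Il6st, 2.85 for Il6ra, 0.990 for Osmr, 1.17 for Lifr and 1.26 for Socs3. Without a hemoglobin limit the ratios were 1.01 for Il6st, 0.991 for Osmr, 1.13 for Lifr and 1.28 for Socs3, and at most 5% mitochondrial UMIs gave 1.58 for Il6. Within classes, Il6 in fibroblast-like cells came to 1.44 when cells were classed singly by their markers, Osm in immature neutrophil-like cells to 5.50 without the hemoglobin limit, Il6st in endothelial-like cells to 1.07 as a mean over cells and 1.41 without integration, and Socs3 in fibroblast-like cells to 1.04 and 1.05 under the same settings. Of 505 such values for the 53 other ratios, 474 kept their side of 1 and 446 stayed within 1.5-fold. The share of a member's UMIs held by its leading class left its counting interval in 25 of 36 values with cells classed otherwise, and the share of cells with a UMI in 30 of 36 values at another depth. Among the ratios past 2-fold, the direction was reversed for Il6 in tenocyte-like cells without the hemoglobin limit (1.56), and in erythroid-like cells for Lifr (0.244 as a mean over cells, 0.247 without the limit) and Socs3 (0.512 without the limit). The cause was not tested. Osm in immature neutrophil-like cells had no value without integration or with cells classed singly, where the class fell short of 50 cells in a library or of 20 UMIs. Ratios over the myeloid classes together, within subtypes, and without clusters, classes or the cells of most UMIs were chosen after seeing the data. Depth limits Il11, Lif outside myeloid cells and every pair of genes seen in the same cell.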
